A study of Mus musculus with 6 samples.

Results

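The genes described here encode the WAVE regulatory complex and a pair of srGAP proteins, measured in Treg cells, regulatory lymphocytes that hold immune responses in check. The rule took 9 named rows of the deposited count table (Nckap1, Nckap1l, Wasf2, Cyfip1, Cyfip2, Abi1, Brk1, Srgap2 and Srgap3) out of 54232 genes listed. They were selected on their KO and WT levels in these same libraries, as a set in which a gene higher in KO can be read beside a more abundant paralog. All 9 passed the filter on low counts, which left 13602 genes. The groups are KO, Treg cells of mice with a conventional knockout of BAF60b, and WT, Treg cells of wild-type mice, with 3 libraries each. BAF60b, encoded by Smarcd2, is a subunit of the SWI/SNF chromatin remodelling complex. In both groups the cells were GFP+ and came from spleen, and libraries were made from their total RNA. The sources do not say what drives GFP, how old the mice were, which exons were removed or whether each library is a separate mouse, so any error given measures the spread between libraries, which may be technical.

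The WAVE complex turns an active Rac GTPase into branched actin at the leading edge of a moving cell. A CYFIP subunit and a NAP1 or HEM1 subunit form its large sensor module, which binds Rac, while a WAVE protein, an ABI adaptor and BRK1 form the part that activates the Arp2/3 actin nucleator. Nckap1 encodes NAP1, used in most tissues, and Nckap1l encodes its blood cell paralog HEM1, which T cells need for actin-rich protrusions. The srGAP proteins bend membranes through an F-BAR domain and switch off Rac or Cdc42 through a GTPase-activating domain. SRGAP3, best known from neurons, was also named WRP because it binds WAVE1.

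The central pattern lay between close relatives, so the places where their coding sequences are most alike are shown first. They bear on whether reads of paralogs could be assigned to the wrong gene. Sequences are from GENCODE M21 transcripts (mm10), read 5′ to 3′ on the gene's strand, with the longest run of identical bases in capitals and 20 bases on either side.
Nckap1: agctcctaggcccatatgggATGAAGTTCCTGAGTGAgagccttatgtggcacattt
Nckap1l: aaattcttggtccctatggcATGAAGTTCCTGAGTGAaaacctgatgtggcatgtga
Srgap3: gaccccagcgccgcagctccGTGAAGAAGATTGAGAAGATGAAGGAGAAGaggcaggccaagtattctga
Srgap2: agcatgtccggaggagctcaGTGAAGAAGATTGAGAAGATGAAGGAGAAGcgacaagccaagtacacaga
The run of Nckap1 and Nckap1l is 17 bases long. The stretch shown lies in exon 24 of Nckap1 (chr2:80519582-80519638, minus strand) and in exon 23 of Nckap1l (chr15:103486350-103486406, plus strand). The run of Srgap3 and Srgap2 is 30 bases long. Its stretch spans exons 5 and 6 of Srgap3 (chr6:112777129-112780922, minus strand, intron included in the span) and exons 6 and 7 of Srgap2 (chr1:131355620-131356739, minus strand, intron included in the span). Over their aligned coding bases, Nckap1 and Nckap1l were 63.1% identical, Srgap3 and Srgap2 68.4%, and Cyfip1 and Cyfip2 77.7%, the last with a longest identical run of 24 bases. No window of 50 coding bases of Nckap1, Nckap1l, Srgap2, Srgap3, Cyfip2, Wasf2, Abi1 or Brk1 occurred in an annotated transcript of another gene on either strand. For Cyfip1, 2.67% of such windows did, all in Gm44616, an annotated transcript on the opposite strand. Untranslated bases were not searched. The coding part was 3300 of 9852 merged exon bases for Srgap3 and 3216 of 12560 for Srgap2. The sources do not give the read length.

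The libraries held between 18167053 and 22502804 reads. Values are CPM, reads of a gene scaled to library size with TMM factors (a correction for library composition), and log2 fold changes are KO minus WT. The targeted gene Smarcd2 averaged 58.2 ± 0.75 CPM in KO and 198.5 ± 6.25 CPM in WT (SD, n = 3 each). The Treg markers Foxp3, Il2ra, Ctla4, Ikzf2, Cd4 and Cd3e together reached 4356 to 4699 CPM in KO and 4145 to 4294 CPM in WT. Of these 6, Ikzf2 rose to 819.4 to 932.3 CPM in KO, against 633.3 to 706.4 CPM in WT (log2 fold change 0.42, edgeR adjusted p = 0.00527). KO 2 and WT 1 held no reads of the Y-linked genes Ddx3y, Eif2s3y, Kdm5d and Uty, which summed to 143.1 to 450.3 CPM in the other libraries. Xist, transcribed from the inactive X chromosome of females, stood at 88.6, 434.6 and 0 CPM in KO 1, 2 and 3, against 453.0, 255.0 and 129.5 CPM in WT 1, 2 and 3. KO 1, WT 2 and WT 3 thus held both Xist and Y-linked reads. Whether these libraries pool mice of both sexes was not tested. KO 2 also had the highest level of myeloid markers (83.5 CPM summed over 6 genes, against 14.8 and 37.2 CPM in the other KO libraries and 25.5 to 31.3 CPM in WT).

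Within the sensor module, the NAP1 gene was higher in KO, and its blood cell paralog HEM1 stood at about the same level in both genotypes. Nckap1 (ENSMUSG00000027002, chr2:80500512-80581380, minus strand) had 508, 538 and 577 reads in KO 1, 2 and 3, against 213, 228 and 243 reads in WT 1, 2 and 3. That is 25.5, 27.4 and 25.5 CPM in KO, against 11.7, 10.9 and 12.3 CPM in WT. The groups did not overlap, and the lowest KO library stood 2.08 times above the highest WT library. The log2 fold change was 1.17 (SE 0.08), a fold of 2.25. In bulk RNA, a change in the share of cells that express a gene and a change in RNA per cell cannot be told apart. The spread between WT libraries (5.89% of the mean) was no wider than counting error gives at this depth (6.62%).

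Nckap1l (ENSMUSG00000022488, chr15:103453794-103498810, plus strand) had 436.6, 430.0 and 419.3 CPM in KO, against 425.9, 424.5 and 428.5 CPM in WT. The WT values lay inside the KO range. Its log2 fold change was 0.01 (SE 0.04). Compared per kilobase of merged exons, which allows levels of different genes to be set side by side, Nckap1l stood 13.7 ± 0.58 times above Nckap1 in KO and 30.8 ± 1.69 times above it in WT (SD, n = 3 each). Nckap1 thus supplied 6.53%, 7.07% and 6.78% of the summed level of the pair in KO 1, 2 and 3, against 3.17%, 2.98% and 3.31% in WT 1, 2 and 3. Nckap1l was by far the more abundant of the pair in every library. The summed level was 77.5 ± 1.51 CPM per kilobase in KO and 74.2 ± 0.47 CPM per kilobase in WT, and the KO and WT values did not overlap.

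The CYFIP proteins, partners of NAP1 and HEM1 that contact active Rac and are also known to bind the RNA regulator FMRP, showed smaller differences, and neither of their genes passed the threshold in edgeR. Cyfip2 passed in 4 of 16 alternative fits, DESeq2 among them, and Cyfip1 in 1. Cyfip2 (ENSMUSG00000020340, chr11:46193850-46312859, minus strand), the more abundant paralog, had 488.4, 429.8 and 447.3 CPM in KO, against 503.7, 515.5 and 532.8 CPM in WT. Every KO value lay under the lowest WT value, and the log2 fold change was -0.18 (SE 0.06). Cyfip1 (ENSMUSG00000030447, chr7:55841745-55932602, plus strand) had 75.6, 79.9 and 71.5 CPM in KO, against 96.5, 84.6 and 82.5 CPM in WT. Its groups did not overlap either, and the log2 fold change was -0.22 (SE 0.07). Among all genes tested, 25.7% had no overlap between the genotypes, so the lack of overlap by itself sets neither gene apart. Exons of Cyfip1 share 1316 bases with those of Nipa2 on the opposite strand, and no source says whether reads were counted by strand. The count of Cyfip1 is therefore uncertain. The summed level of the pair was 70.4 ± 4.14 CPM per kilobase in KO and 80.2 ± 1.53 CPM per kilobase in WT. Cyfip1 made up 9.02 ± 0.82% of this sum in KO and 9.19 ± 0.93% in WT, and here the groups overlapped. The difference in this share was smaller than the spread between libraries.

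**Figure D1:**
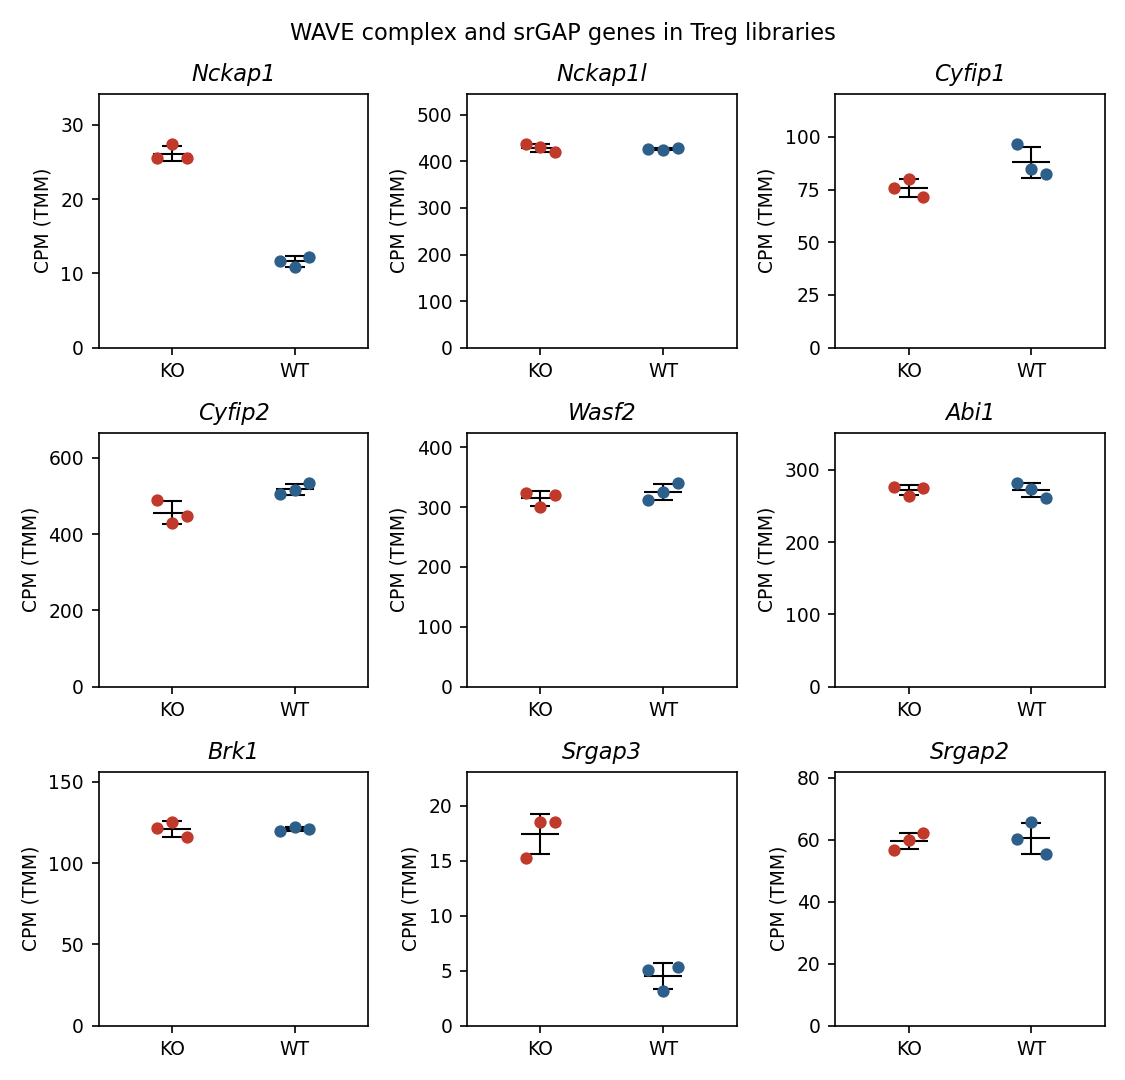
TMM-scaled CPM of each of the 9 genes (y axes, each from 0) in the KO and WT libraries (points), with the mean and SD (black lines, n = 3 each). Nckap1 at 25.5 to 27.4 CPM in KO and Srgap3 at 15.3 to 18.5 CPM in KO stand clear of their WT points, while Nckap1l and Srgap2 overlap between the genotypes.

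The subunits that carry the output of the complex differed little between the genotypes. Wasf2 (ENSMUSG00000028868, chr4:133130505-133199756, plus strand) encodes WAVE2, the main WAVE protein of blood cells. It had 324.4, 300.7 and 319.8 CPM in KO, against 312.8, 325.0 and 339.8 CPM in WT, and the ranges overlapped (log2 fold change -0.05, SE 0.05). Its paralogs Wasf1, the WAVE1 gene of neurons, and Wasf3 were nearly silent. Wasf1 had 0, 2 and 0 reads in KO and 0, 2 and 1 reads in WT, and Wasf3 had 0 reads in every library, where a count of 0 allows up to 3 reads. Wasf2 was at least 99.9% of the summed WAVE level in each library.

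Abi1 (ENSMUSG00000058835, chr2:22940073-23040241, minus strand), the adaptor that ties the WAVE protein to the sensor part, had 276.3, 264.3 and 275.4 CPM in KO, against 281.2, 274.0 and 261.5 CPM in WT. The ranges overlapped, with a log2 fold change of 0.00 (SE 0.05). Its exons share 194 bases with Pdss1 on the opposite strand, a gene with 421 reads over all libraries. Abi1 made up 94.6 ± 0.36% of the summed level of the ABI genes in KO and 94.6 ± 0.24% in WT. Its paralog Abi2 averaged 29.1 ± 1.5 CPM in KO and 28.3 ± 1.40 CPM in WT (SD, n = 3 each), with a log2 fold change of 0.04 (edgeR adjusted p = 0.818). Abi3 was low, at 1.77 ± 0.53 CPM in KO and 2.40 ± 0.62 CPM in WT (log2 fold change -0.42, edgeR adjusted p = 0.466). Exons of Abi3 share 2913 bases with Zfp652 on the opposite strand, which leaves its level uncertain. Brk1 (ENSMUSG00000033940, chr6:113604772-113616951, plus strand), the small stabilising subunit, had 121.9, 125.2 and 115.9 CPM in KO, against 119.9, 122.3 and 121.1 CPM in WT, again with overlap (log2 fold change 0.00, SE 0.05).

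The srGAP pair repeated the contrast seen between Nckap1 and Nckap1l, with a wider gap. Srgap3 (ENSMUSG00000030257, chr6:112717971-112947266, minus strand) had 304, 363 and 418 reads in KO 1, 2 and 3, against 93, 66 and 105 reads in WT 1, 2 and 3. In CPM these were 15.3, 18.5 and 18.5 in KO, against 5.10, 3.15 and 5.29 in WT. The lowest KO library stood 2.89 times above the highest WT library. The log2 fold change was 1.95 (SE 0.18), a fold of 3.87. Srgap3 varied more between libraries than Nckap1. Its WT values spread by 26.2% of their mean, where counting error alone gives 10.7%, and WT 2 was the lowest. Srgap2 (ENSMUSG00000026425, chr1:131285251-131527352, minus strand) had 56.6, 60.0 and 62.0 CPM in KO, against 60.2, 65.6 and 55.4 CPM in WT. The ranges overlapped, and the log2 fold change was -0.02 (SE 0.07). Srgap3 supplied 25.6%, 28.2% and 27.5% of the summed level per kilobase of Srgap2 and Srgap3 in KO 1, 2 and 3, against 9.74%, 5.77% and 10.9% in WT 1, 2 and 3. The sum of Srgap2 and Srgap3 reached 6.51 ± 0.40 CPM per kilobase in KO and 5.27 ± 0.30 CPM per kilobase in WT, without overlap. This sum leaves out Srgap1 and the more abundant Arhgap4, so the shares are of the pair and not of the family. The remaining srGAP genes did not pass the test. Srgap1 stood at 0.55 ± 0.16 CPM in KO and 0.62 ± 0.13 CPM in WT (log2 fold change -0.19, edgeR adjusted p = 0.832). Arhgap4, a related gene of blood cells, was abundant, at 331.0 ± 33.9 CPM in KO and 313.8 ± 21.6 CPM in WT (log2 fold change 0.08, edgeR adjusted p = 0.648), though its exons overlap those of Naa10 and L1cam on the same strand. The Slit and Robo genes, a ligand and receptor pathway that recruits srGAPs in neurons, had too few reads for a test in all 7 cases.

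**Figure D2:**
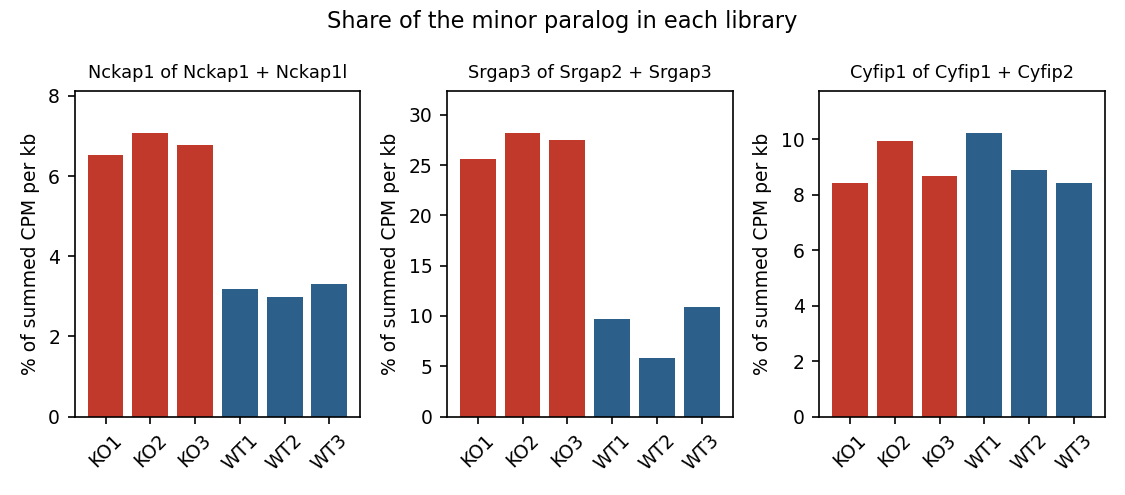
Share of the less abundant paralog in the summed CPM per kilobase of merged exons (y axes in percent, from 0), 1 bar per library, KO red and WT blue. Nckap1 and Srgap3 make up a larger share in each KO library than in any WT library, while the bars of Cyfip1 overlap between the genotypes.

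Of the 9 genes, 2 passed the threshold (adjusted p under 0.05 in edgeR's quasi-likelihood fit on all genes) as higher in KO and 0 as lower in edgeR, beside 6.45% of all genes tested in either direction, 3.25% as higher and 3.2% as lower. The 9 were chosen with these values known, so their fold changes and calls are a description and no test is given for them. DESeq2 called Cyfip2 lower as well, and limma-voom called the same 2 genes as edgeR. The median log2 fold change of the 9 was 0.00, as was that of all genes tested. Both Nckap1 and Srgap3 passed the threshold in all 16 alternative fits, with log2 fold changes of 1.12 to 1.21 for Nckap1 and 1.74 to 2.09 for Srgap3. Without KO 2 and WT 1, which lack Y-linked reads, the values were 1.14 for Nckap1 and 2.0 for Srgap3. Without KO 2, the library richest in myeloid markers, they were 1.13 for Nckap1 and 1.91 for Srgap3.

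**Figure D3:**
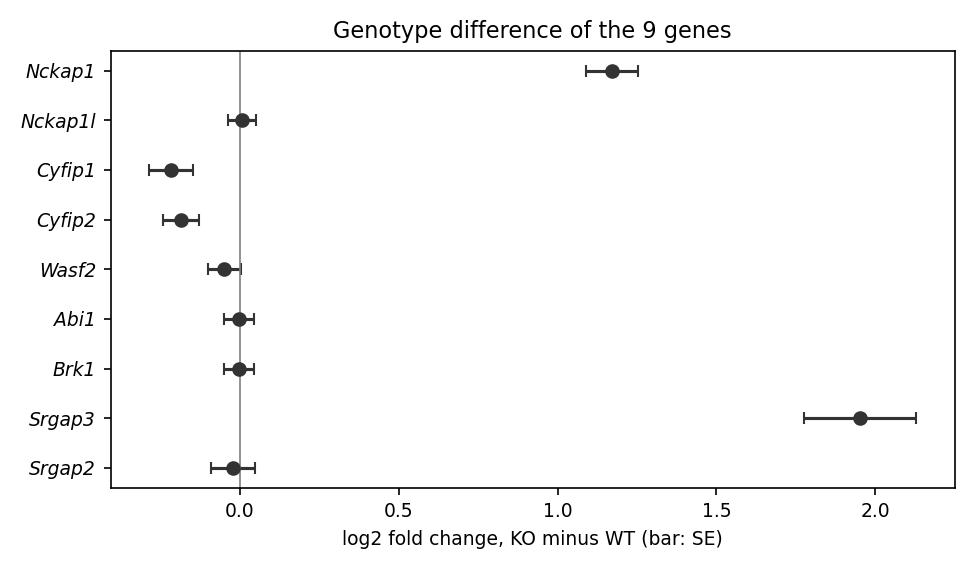
Log2 fold change of each of the 9 genes (x axis, KO minus WT, log2 scale) with its SE as a bar. Nckap1 at 1.17 and Srgap3 at 1.95 lie far to the right of the other 7 genes, which fall between -0.22 and 0.01.

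Levels per kilobase of merged exons put the 9 genes in an abundant and a scarce group. In KO the order was Brk1 (110.5 ± 4.27), Nckap1l (72.2 ± 1.47), Abi1 (67.5 ± 1.66), Cyfip2 (64.1 ± 4.23), Wasf2 (50.3 ± 2.01), Cyfip1 (6.34 ± 0.35), Nckap1 (5.27 ± 0.22), Srgap2 (4.74 ± 0.22) and Srgap3 (1.77 ± 0.19 CPM per kilobase). In WT it was Brk1 (110.6 ± 1.08), Cyfip2 (72.8 ± 2.06), Nckap1l (71.8 ± 0.34), Abi1 (67.5 ± 2.46), Wasf2 (52.1 ± 2.16), Cyfip1 (7.36 ± 0.63), Srgap2 (4.81 ± 0.41), Nckap1 (2.34 ± 0.14) and Srgap3 (0.46 ± 0.12 CPM per kilobase). Cyfip2 overlapped Abi1 in KO and Nckap1l in WT, and the other neighbours in these orders did not overlap. The place of Nckap1 depends on the length used, since the merged exons of Srgap2 (12560 bases) are much longer than its longest transcript (8026 bases). Per kilobase of the longest transcript, Nckap1 stood at 5.69 ± 0.23 CPM in KO, under Srgap2 at 7.42 ± 0.34 CPM in KO. On that scale Cyfip2 (77.7 ± 2.20 CPM in WT) came after Nckap1l (85.4 ± 0.40) and Abi1 (80.0 ± 2.92) in WT.

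The promoters of the srGAP pair are shown because Srgap3 and Srgap2 differed in this comparison. RefSeq (GRCm38.p6) gave a promoter, from 250 bases before to 50 after the start, for 6 of the 9 genes, and none for Nckap1, Nckap1l and Cyfip1. Capitals mark matches on either strand to the GC box GGGCGG, the CCAAT box or the TATA box TATAAA, which do not overlap each other here.
Srgap3: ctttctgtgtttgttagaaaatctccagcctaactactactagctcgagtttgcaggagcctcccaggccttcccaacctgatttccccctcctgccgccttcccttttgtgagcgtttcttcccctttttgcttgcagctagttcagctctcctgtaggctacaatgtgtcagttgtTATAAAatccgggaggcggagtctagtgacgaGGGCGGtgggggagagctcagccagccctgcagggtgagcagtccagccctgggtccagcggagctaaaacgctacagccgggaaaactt
Srgap2: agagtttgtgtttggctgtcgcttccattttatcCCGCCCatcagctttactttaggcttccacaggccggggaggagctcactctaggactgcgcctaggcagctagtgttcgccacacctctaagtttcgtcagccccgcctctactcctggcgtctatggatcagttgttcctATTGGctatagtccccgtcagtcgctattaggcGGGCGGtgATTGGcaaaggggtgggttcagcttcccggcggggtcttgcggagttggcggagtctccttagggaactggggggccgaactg
The Srgap3 promoter (chr6:112947217-112947516, minus strand) held 1 match to the GC box, at position -40 from the start, and 1 to the TATA box, at position -72. The Srgap2 promoter (chr1:131527312-131527611, minus strand) held 2 matches to the GC box and 2 to the CCAAT box, and none to the TATA box. These are matches of letters, and whether any of them acts as a promoter element was not tested. Of 32851 promoters in the table, 35.7% held a GC box, 37.4% a CCAAT box and 13.6% a TATA box. The ratio of observed to chance-level CpG pairs was 0.447 for Srgap3 and 0.684 for Srgap2, with a median of 0.384 over all promoters. The ETS core CCGGAAG (in 8.86% of promoters), the CRE TGACGTCA (1.79%), the AP-1 site TGACTCA (5.2%) and the E-box CACGTG (7.15%) were not found in either.

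The genes beside Nckap1 and Srgap3 on the chromosome did not pass the test. The nearest tested neighbours of Nckap1 were Dusp19, 35.7 kb away (log2 fold change 0.07, edgeR adjusted p = 0.854), and Dnajc10, 146.5 kb away on the other side (log2 fold change 0.06, edgeR adjusted p = 0.753). Those of Srgap3 were Gm26799, 13.3 kb away (log2 fold change -0.21, edgeR adjusted p = 0.669), and Thumpd3, 99.0 kb away (log2 fold change -0.02, edgeR adjusted p = 0.890).

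Since Nckap1 and Srgap3 are best known outside blood, markers of other cells were read beside them. Of the endothelial markers, Cdh5, Kdr, Tek, Emcn and Egfl7 had at most 7 reads in any library, with Kdr and Emcn at 0 throughout, and Pecam1, which T cells also express, held nearly all of a summed level of 189.0 to 249.7 CPM in KO and 204.3 to 215.8 CPM in WT. The 6 fibroblast markers summed to 2.70 to 3.97 CPM in KO and 3.08 to 3.44 CPM in WT, with Col3a1 and Pdgfra at 0 reads. Of the neural markers, Snap25, Rbfox3 and Gfap had at most 5 reads in any library, and Mbp, which T cells also transcribe, stood at 226.5 to 255.7 CPM in KO and 243.4 to 257.4 CPM in WT. Of Pecam1, Col1a1, Col1a2, Dpt and Mbp, 0 passed in edgeR, DESeq2 or limma-voom, and 1 (Col1a2) had an unadjusted p under 0.05 in edgeR. Col1a2 stood at 0.84 to 1.17 CPM in KO and 0.16 to 0.62 CPM in WT (log2 fold change 1.11, edgeR adjusted p = 0.178). Col1a1 and Dpt went the other way, with log2 fold changes of -0.43 and -0.58. Cdh5, with too few reads for a test, had 5, 6 and 7 reads in KO, against 2, 2 and 1 reads in WT. The 6 B cell markers summed to 8.53 to 11.6 CPM in KO and 14.3 to 17.4 CPM in WT. Of these Cd79b was lower in KO (log2 fold change -0.69, edgeR adjusted p = 0.0106), while Ebf1 had 5, 9 and 2 reads in KO and 0 reads in each WT library. The 3 NK cell markers summed to 5.75 to 7.03 CPM in KO and 4.89 to 6.45 CPM in WT, and they did not all go one way. Klrb1c was lower in KO (log2 fold change -1.14, edgeR adjusted p = 0.0353). Eomes stood at 4.32 to 5.66 CPM in KO and 2.72 to 3.77 CPM in WT without passing (log2 fold change 0.71, edgeR adjusted p = 0.0560), and Ncr1 had 4, 5 and 1 reads in KO and 0 reads in each WT library. The 5 dendritic cell markers summed to 2.79 to 3.92 CPM in KO and 1.72 to 2.14 CPM in WT, without overlap. Of these, Zbtb46 did not pass (log2 fold change 0.77, edgeR adjusted p = 0.0601). The 4 platelet markers summed to 1.36 to 2.70 CPM in KO and 1.56 to 2.20 CPM in WT. The 4 erythroid markers summed to 10.4 CPM in KO 2, against 2.16 CPM in KO 1, 0.53 CPM in KO 3 and 0.96 to 2.96 CPM in WT. The part of other cells in the levels of the 9 genes was not tested.

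The genes around the complex were read from 9 lists of 95 genes, of which 77 were tested. Of these, 4 rose and 4 fell in KO, which is 10.4% beside 6.45% of all genes tested, and the median log2 fold change was 0.04. With upper-quartile or library-size scaling the split was 7 higher and 4 lower. The count of higher genes was 2 without KO 1, WT 1 or WT 2, and that of lower genes was 2 without KO 2 or WT 2. Upstream, 0 of 17 Rac GTPases and activators passed in edgeR, beside 6.45% of all genes tested. Of the 17, 2 had an unadjusted p under 0.05 (Rac3 and Vav3), and 0 passed in DESeq2 or limma-voom. Rac3 had the smallest p, at 1.38 ± 0.61 CPM in KO and 0.55 ± 0.23 CPM in WT (log2 fold change 1.35, edgeR adjusted p = 0.111). The abundant T cell members did not pass, among them Rac2 at 1322 ± 47.5 CPM in KO and 1304 ± 37.4 CPM in WT (edgeR adjusted p = 0.879) and Dock2, the main Rac activator of lymphocytes, with a log2 fold change of 0.08 (edgeR adjusted p = 0.399). Both were named after their values were seen.

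Among 8 Rac GTPase-activating proteins, 1 rose and 1 fell in edgeR, beside 3.25% and 3.2% of all genes tested. DESeq2 called 3, adding Arhgap25 as higher. Chn2, which encodes beta-chimaerin, fell to 6.08, 5.19 and 5.26 CPM in KO, against 11.0, 9.89 and 10.03 CPM in WT (log2 fold change -0.90, SE 0.12, edgeR adjusted p = 0.00262). Without KO 2 and WT 1, which lack Y-linked reads, its call was lost (edgeR adjusted p = 0.0582), and over all alternatives its log2 fold change lay between -0.98 and -0.82. Racgap1, a component of the cytokinesis machinery, rose to 52.6 ± 2.08 CPM in KO, against 43.1 ± 2.33 CPM in WT (SD, n = 3 each). Its log2 fold change was 0.29 (SE 0.06, edgeR adjusted p = 0.0240), and the call was lost without KO 1, KO 3 or any 1 WT library.

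Downstream, 0 of 10 Arp2/3 subunits passed in edgeR, beside 6.45% of all genes tested. Of the 10, 0 had an unadjusted p under 0.05, and 0 passed in DESeq2 or limma-voom. Their log2 fold changes lay between -0.04 and 0.13. The smallest p was that of Arpc5l (log2 fold change 0.09, edgeR adjusted p = 0.337), whose exons share 62 bases with Rpl35 on the opposite strand. Among 7 regulators of Arp2/3 branches, 2 rose, beside 3.25% of all genes tested. Cttn, which encodes cortactin, a protein that stabilises branches, had 13.1, 11.8 and 14.5 CPM in KO, against 5.15, 5.01 and 4.34 CPM in WT. The groups did not overlap, and the log2 fold change was 1.44 (SE 0.13, edgeR adjusted p = 0.000324). Hcls1, its blood cell homologue HS1, named after its values were seen, stood at 482.2 ± 13.9 CPM in KO and 475.4 ± 10.6 CPM in WT (log2 fold change 0.02, edgeR adjusted p = 0.861). Coro1b, a coronin that acts on branches, rose to 305.6 ± 10.8 CPM in KO, against 265.9 ± 6.88 CPM in WT (log2 fold change 0.20, edgeR adjusted p = 0.0342). Its exons share 432 bases with those of Ptprcap on the same strand, a gene with 51478 reads over all libraries. The call was also lost without KO 1, KO 2 or any 1 WT library, so it is uncertain.

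**Figure D4:**
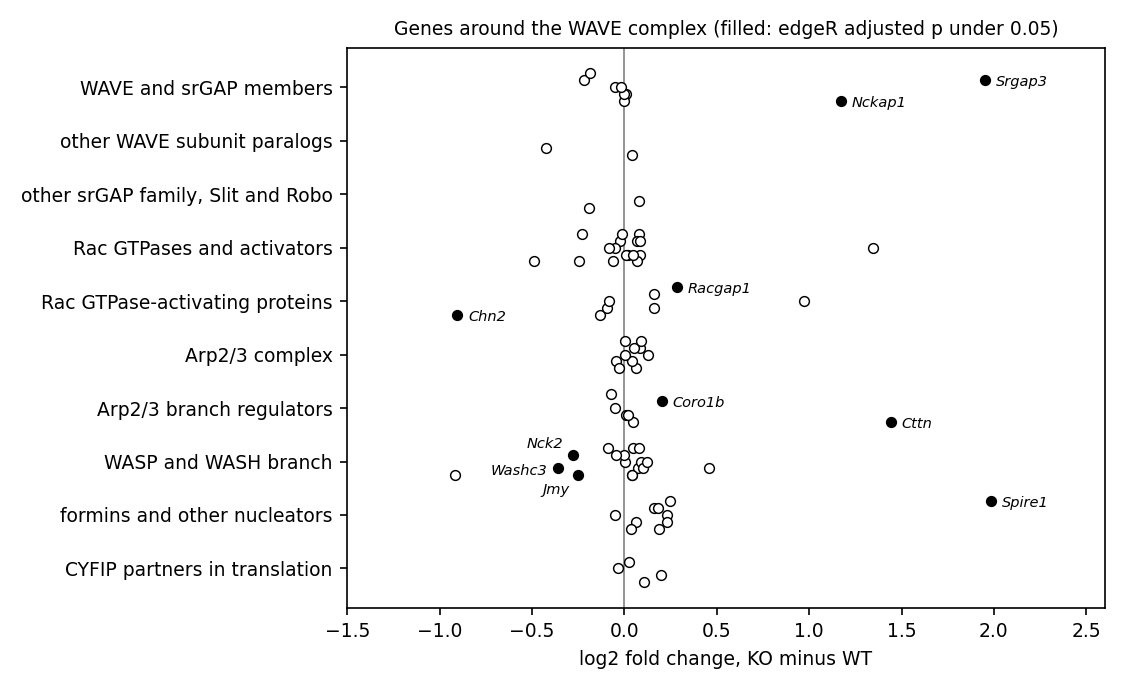
Log2 fold change (x axis, KO minus WT, log2 scale) of every tested gene in the 9 WAVE and srGAP genes and the lists around them (rows). Each point is 1 gene, and filled points have an adjusted p under 0.05 in edgeR. Cttn at 1.44 and Spire1 at 1.99 stand to the right beside Nckap1 and Srgap3, and the Arp2/3 subunits lie close to 0.

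The parallel WASP and WASH branch activates Arp2/3 elsewhere in the cell. In edgeR, 3 of its 17 tested genes were lower in KO and 0 higher, beside 3.2% and 3.25% of all genes tested. DESeq2 called 4, adding Fnbp1l as lower. Washc3, a WASH complex subunit, fell to 30.2 ± 0.59 CPM in KO, against 38.7 ± 1.58 CPM in WT (log2 fold change -0.36, SE 0.06, edgeR adjusted p = 0.00906). Its call was lost without KO 2 and WT 1 (edgeR adjusted p = 0.0702), and over all alternatives its log2 fold change lay between -0.39 and -0.33. The nucleation factor gene Jmy had a log2 fold change of -0.25 (edgeR adjusted p = 0.0283) and the adaptor gene Nck2 of -0.28 (edgeR adjusted p = 0.0304). The call of Jmy was lost without any 1 library other than WT 1, and that of Nck2 without any 1 library other than KO 3. Of 10 formins and other nucleators 1 rose, beside 3.25% of all genes tested. This was Spire1, at 3.63 ± 0.42 CPM in KO and 0.91 ± 0.28 CPM in WT (log2 fold change 1.99, SE 0.26, edgeR adjusted p = 0.00259). DESeq2 called 3 of the 10, adding Diaph1 and Fmnl1 as higher, and limma-voom called 2, adding Diaph1. In edgeR Diaph1 lay just over the threshold (log2 fold change 0.19, edgeR adjusted p = 0.0509). Of the 4 CYFIP partners in translation 0 passed in edgeR, beside 6.45% of all genes tested. Of the 4, 0 had an unadjusted p under 0.05, and 0 passed in DESeq2 or limma-voom. The smallest p was that of Fxr1, with a log2 fold change of 0.20 (edgeR adjusted p = 0.287), whose exons share 178 bases with Dnajc19 on the opposite strand.

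The genes whose profile over the 6 libraries was most like that of Nckap1 were Jarid2 (Pearson r = 0.997), Panx1 (r = 0.996) and Tmem263 (r = 0.996). Among those most like Srgap3 were Raph1 (r = 0.997) and S100a6 (r = 0.995). These values compare log2 levels over the same 6 libraries, which differ by genotype, and are given as a description. Among 10124 genes compared, 54 reached an r over 0.98 with Nckap1 and 39 with Srgap3. The size of the step differed widely among them, as Jarid2 had a log2 fold change of 0.22 and Raph1 of 0.72.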

How the data were processed

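RNA-seq read counts per gene were taken as deposited by the authors, unnormalized. Per the submitters' processing notes, the genome build was mm10 and the tools included HISAT2 2.1.0, fastp 0.23.2, DESeq2 1.34.0 and Picard, with no order or role stated. No source used here gives the counter, its strand setting or the annotation release. Spreadsheet dates in place of 27 symbols were restored from the gene identifier. Genes were kept by filterByExpr (minimum count 10, minimum total 15), scaled by TMM and tested with the quasi-likelihood F test of edgeR 4.0.16 in R 4.3.3, with Benjamini-Hochberg adjustment over 13602 genes. Each SE was obtained as the absolute log2 fold change over the root of the F statistic. Alternatives used limma 3.58.1 and DESeq2 1.42.0. The steps were tested on simulated data.

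Gene ends and exon lengths came from GENCODE M21 (the same build). Coding sequences of the longest coding transcripts were aligned with Biopython 1.88. The promoters, with their sequence, are RefSeq's. Totals of 18167053 to 22502804 reads set the counting precision, and floors cover counting error only. No pair of libraries within a genotype agreed within sampling noise (chi-square per degree of freedom at least 5.03).

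The members and lists were chosen with earlier results of these data known. The named genes are Smarcd2, the members, tested genes of the WAVE and srGAP paralog lists, up to 3 called genes of each other list (or that with the smallest p), and the 3 genes most like each member that was called higher, with mean levels of 2 CPM or more. Likeness used log2(CPM + 0.5). One gene of the likeness ranking and one neural marker are not reported here. Levels per kilobase of the longest transcript and the neighbours by position were chosen after seeing the data.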

Additional observations from a re-analysis of the deposited data

How the results depend on the processing

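Across 16 alternatives the log2 fold changes of the 7 genes other than Nckap1 and Srgap3 stayed between -0.26 and 0.04. The count of all genes called, 877, was 1624 with no filter, 186 without the libraries lacking Y-linked transcripts, and 344 to 848 with 1 library left out (344 without WT 1 or WT 2, 556 without WT 3). Of the 9 genes, 2 were higher in every alternative, and 0 lower became 2 with no filter (Cyfip1 and Cyfip2), 1 in DESeq2 and 1 with the Y-linked share as covariate (Cyfip2), and 0 to 1 with 1 library left out (Cyfip2 without KO 1). In the lists around them, 4 higher became 7 with upper-quartile factors, library size only, no filter, a mean of at least 2 CPM or DESeq2, and 2 without the libraries lacking Y-linked transcripts, and 2 to 4 with 1 library left out. The 4 lower became 2 to 3 with 1 library left out and 0 without the libraries lacking Y-linked transcripts, where Chn2 and Washc3 lost their calls (adjusted p = 0.0582 and 0.0702 in edgeR). That fit has 4 libraries. The cause of these lost calls and of the other changes was not tested. The share difference of Nckap1, 3.64 percentage points, was 3.34 per kilobase of the longest transcript and 3.10 with no length correction. For Srgap3, 18.3 percentage points became 14.4 and 15.5.

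With the replicate number as a block, 738 genes were called, 2 of the 9 genes, and 3 higher and 2 lower in the lists. No pairing by number was visible. Same-numbered libraries had correlations of -0.145, -0.045 and 0.155 in their deviations from the genotype means. Only KO 3 correlated best with its own number. With 3 libraries per genotype, these correlations cannot show whether the samples were paired. Depth limits Srgap3 in WT (66 to 105 reads) and the genes with fewer reads. The read length and the strand setting limit what can be said of overlapping genes.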

Other observations

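Some genes around the complex had too few reads to be tested. Cobl, an actin nucleator of neurons, had 10, 11 and 10 reads in KO, against 1, 0 and 4 reads in WT. Slit1, a guidance ligand that acts through Robo receptors, had 12, 8 and 7 reads in KO, against 1, 5 and 2 reads in WT. The Rac GTPase-activating protein gene Arhgap22 had 2, 3 and 1 reads in KO and 0 reads in each WT library, where a count of 0 allows up to 3 reads. These were picked after their values were seen, and the other untested genes of the lists had at most 11 reads in any library.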
